A study of Mus musculus with 2 samples.

Results

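The cells described here were the mitotic cells of a library of mouse embryonic stem cells negative for a MERVL reporter. They were chosen by a score, the share of a cell's counted RNA molecules (UMIs, unique molecular identifiers) that came from 8 genes of mitosis: Ccnb1, Cdc20, Plk1, Aurka, Cenpf, Cenpe, Ube2c and Hmmr. Of the 3832 cells in the library, 8 had fewer than 10000 UMIs and 225 had at least 0.03% of their UMIs from the endoderm genes Gata6, Sox17, Pdgfra and Dab2. The remaining 3599 cells were ordered by score. The top 10%, 359 cells, were the members, and the bottom 50%, 1799 cells, served as comparison. The 1441 cells between them entered neither sum.

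All cells of the series came from 1 mouse embryonic stem cell line that carried MERVL::GFP, green fluorescent protein under the promoter of the endogenous retrovirus MERVL, together with H2B-mIFP, a fluorescent histone used for tracking. The reporter marks 2C-like cells, a rare state of these cultures named after the embryo at the 2-cell stage. One library was deposited for each group, MERVL GFP negative with 3832 cells and MERVL GFP positive with 4603, 8435 cells in all. No treatment, sorting gate, clone or culture date is given in the sources used here, and the label for batch repeats the group, so that batch and group cannot be told apart.

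In mitosis, the kinase CDK1 bound to cyclin B condenses the chromosomes and dissolves the nuclear envelope, spindle motors and kinetochores align the sister chromatids, and the anaphase-promoting complex with its activator CDC20 ends the phase by degrading cyclin B and securin. Transcripts of most of these proteins already accumulate in G2, so an RNA score does not separate G2 cells from cells in mitosis. Embryonic stem cells divide fast, with a short G1 and a large share of cells in S phase. Replication-dependent histone genes are transcribed in S phase, and their transcripts are degraded when replication ends.

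With 1 library per group, cells are not replicates of a condition, and no test across samples was possible. Intervals are at 95%. Those of CPM values and their ratios are exact and cover counting error only, those of shares of cells are exact binomial intervals over the cells of 1 library, and those of list medians reflect the spread over genes. A level is given in CPM, the UMIs of a gene per 1000000 UMIs summed over a group of cells, and a difference as the log2 ratio of CPM + 1, members over comparison cells. A gene was called higher or lower at a ratio of at least 1.5 in either direction, with at least 10 CPM in either group and at least 50 UMIs in all.

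The summed members held 17121525 UMIs and the comparison cells 69726019. Members had a median of 47059 UMIs (10171 to 114886) and 6489 genes per cell, against 37910 UMIs (10068 to 112546) and 5742 genes in the comparison cells. Thus 282 of the 359 members, 78.6%, lay above the comparison median in UMIs. The mitochondrial share of UMIs was alike, at medians of 1.63% and 1.60%. The reporter transcript GFP was found in 1.67% of members and 1.17% of comparison cells, with 6 and 23 UMIs in all, and in 0.557% and 0.222% after thinning each cell to 10000 UMIs. The libraries shared 3 cell barcodes, none of them among the members. The part of cell depth as a cause of the results was not tested, but counts of genes in thinned cells and in a narrower UMI range are given below. Values from thinned cells are given beside shares of cells.

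The 8 score genes are described first, as they chose the cells. The score of the members ran from 0.256% to 0.809% with a median of 0.320%, and that of the comparison cells from 0.00440% to 0.106% with a median of 0.0762%. Ube2c, the ubiquitin-conjugating enzyme of the anaphase-promoting complex, had 1053 CPM in members and 166 in comparison cells and gave 31.1% of the members' score UMIs. Cenpf, a kinetochore protein of late G2 and mitosis, followed with 810 and 160 CPM, or 23.9% of the score. Hmmr, a spindle-associated protein, had 532 and 131 CPM. Ccnb1, which encodes cyclin B1, had 291 and 108 CPM, and Cdc20 had 230 and 96.6. The motor gene Cenpe had 193 and 46.8 CPM. The kinase genes Plk1 and Aurka had 146 and 27.4 CPM and 130 and 17.4 CPM. Since these values set the score, no support is drawn from them.

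**Figure D1:**
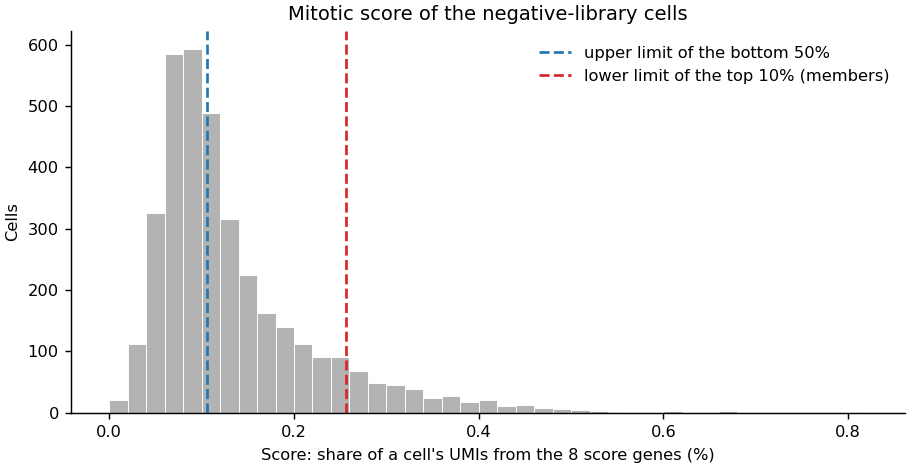
Number of negative-library cells (vertical axis) by score (horizontal axis, share of a cell's UMIs from the 8 score genes in percent, in steps of 0.02) for the 3599 cells within the UMI and endoderm limits. Dashed lines mark the highest score of the comparison cells, 0.106%, and the lowest of the members, 0.256%; the distribution has a single mode and a long tail, with no gap at the member limit.

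The limit cut a continuous range. The member just inside it had 112 score UMIs of 43720, a share of 0.2562%, and the cell just outside had 92 of 35962, a share of 0.2558%. The members are the upper end of a continuous range of scores. When each score gene was left out in turn and cells were chosen by the other genes of the score, between 87.2% and 96.9% of the members were chosen again. The share was lowest without Ube2c, the largest part of the score. The genes kept had also chosen the members, so a large overlap was built in and nothing is read from it. In these held-out choices the omitted gene was still higher in the chosen cells each time, from a CPM ratio of 2.01 for Cdc20 to one of 6.67 for Aurka. Held-out Ube2c had a ratio of 5.21, Plk1 4.82, Cenpf 4.19, Cenpe 3.72, Hmmr 3.19 and Ccnb1 2.51. A score of Ccnb1, Cdc20, Plk1 and Aurka alone chose 239 of the 359 members, 66.6%, and one of the other score genes chose 330, 91.9%. Both sets of genes had a part in choosing the members, so these shares are partly built in. The cells chosen by the 4 marker genes and by the other 4 genes had 214 of 359 in common, 59.6%.

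The label was checked against markers that the score did not use. All 14 further G2 and mitosis markers, among them Cdk1, Birc5, Top2a and Mki67, had ratios above 1.5, with a median log2 ratio of 1.18, and their summed level was 3302 CPM in members and 1376 in comparison cells. None of the 9 S phase markers had a log2 ratio above 0, and 4 had ratios below the limit, with summed levels of 987 and 1387 CPM. The 5 embryonic stem cell markers Pou5f1, Sox2, Nanog, Esrrb and Zfp42 summed to 2560 and 2509 CPM, of which Zfp42 gave 1292 and 1310.4 CPM, and Nanog had the largest log2 ratio among them, 0.32. Defining markers of other cells had low sums in both groups. The 6 primitive endoderm markers, of which 4 were limited by the rule, summed to 13.1 and 10.8 CPM, the 5 2C-like markers to 1.11 and 1.29 with Zfp352 at 0, the 5 fibroblast markers to 3.80 and 3.81 with Col3a1 at 0, and the 4 trophoblast markers to 3.04 and 2.77 with Elf5 at 0 in members. Longer lists summed to 209 and 217 CPM for 15 other endoderm genes and to 62.9 and 51.8 CPM for 10 trophoblast genes. In these lists only 6 and 1 genes reached the level limits, so that few could be called, and none was.

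Many promoters of genes expressed late in the cell cycle hold a cell cycle homology region (CHR), searched for here as the letters TTTGAA and as the variant spelled TTTAAA, and a CCAAT box. Promoters of the 4 marker genes, of Ube2c and of Cenpa and Nusap1, the latter with the highest ratio outside the score, are shown because the first 5 of these genes belong to the score and the others had high ratios outside it. The sequences are from RefSeq, build GRCm38.p6, each from 100 bases before to 30 bases after the annotated start, 5' to 3' on the strand of the gene. Capitals mark a CHR in either spelling and a CCAAT box. Where a motif lies on the opposite strand, its reverse complement is in capitals, which is TTCAAA for the former and for the box reads ATTGG.
Ccnb1, chr13:100786457-100786586, minus strand: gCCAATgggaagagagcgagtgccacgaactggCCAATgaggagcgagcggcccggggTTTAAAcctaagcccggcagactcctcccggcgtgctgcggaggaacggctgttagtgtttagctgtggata
Cdc20, chr4:118437314-118437443, minus strand: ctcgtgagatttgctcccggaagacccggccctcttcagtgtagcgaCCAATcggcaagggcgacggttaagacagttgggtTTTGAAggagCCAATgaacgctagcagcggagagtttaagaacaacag
Plk1, chr7:122159335-122159464, plus strand: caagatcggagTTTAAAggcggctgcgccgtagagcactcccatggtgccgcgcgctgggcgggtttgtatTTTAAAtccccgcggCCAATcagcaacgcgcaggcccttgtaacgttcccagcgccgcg
Aurka, chr2:172370541-172370670, minus strand: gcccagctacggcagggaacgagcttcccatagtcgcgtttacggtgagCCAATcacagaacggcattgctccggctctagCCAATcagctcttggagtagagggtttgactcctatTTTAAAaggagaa
Ube2c, chr2:164769829-164769958, plus strand: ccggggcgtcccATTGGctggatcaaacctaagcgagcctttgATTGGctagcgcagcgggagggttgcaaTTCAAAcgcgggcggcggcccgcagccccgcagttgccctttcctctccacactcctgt
Cenpa, chr5:30666786-30666915, plus strand: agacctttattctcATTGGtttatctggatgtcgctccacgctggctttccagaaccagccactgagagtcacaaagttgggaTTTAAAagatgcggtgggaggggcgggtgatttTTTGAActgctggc
Nusap1, chr2:119618198-119618327, plus strand: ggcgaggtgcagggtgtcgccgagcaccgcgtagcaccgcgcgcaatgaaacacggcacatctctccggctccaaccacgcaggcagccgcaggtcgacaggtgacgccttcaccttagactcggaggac

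Cyclin B1's promoter held TTTAAA at base -42 from the start and CCAAT at -99 and -67. In Cdc20, TTTGAA lay at -18 between CCAAT boxes at -53 and -8. Plk1 held TTTAAA at -89 and -29 and CCAAT at -14, and Aurka held TTTAAA at 18 and CCAAT at -51 and -19. TTTGAA was also found past the stretch shown, at 31 in Plk1 and at 33 in Aurka. In Ube2c, TTTGAA lay on the opposite strand at -29. Cenpa held TTTAAA at -17 and TTTGAA at 17. Nusap1 held none of these letters in its window, although its ratio was above those of the other genes outside the score.

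Over 300 bases per promoter, 250 before the start and 50 after it, both strands were searched for both spellings of the CHR, of which TTTAAA reads the same on either strand, and for the CCAAT box, and overlapping matches were kept. All 8 score genes held a CHR and a CCAAT box, against 10.7% of all 32851 promoters and 8.44% of those of the genes compared. Of the 144 genes in 8 lists of mitotic genes, 121 matched the table with 142 promoters, and 38.7% of these held both motifs. The share was 55.4% in the promoters of list genes called higher and 20.6% in those not called. In 149 promoters of genes called higher but in no mitosis list it was 27.5%. In the replication list, 17.4% of 46 promoters held both. Of 64 replication-dependent histone genes, 57 matched with 58 promoters, and 58.6% of these held both, whether or not the gene was called. A match describes letters and not a bound site.

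Outside the score and endoderm genes, 7313 genes were compared. Of these, 215 (2.94%) were called higher in members and 38 (0.520%) lower. At a ratio of 2 the counts were 76 (1.04%) and 11 (0.150%). The median log2 ratio over all genes compared was 0.03. With TMM scaling of the summed counts, which assumes that most genes are equal, the split was 154 higher and 55 lower. Among cells with UMIs between the library's quartiles, 130 members and 972 comparison cells, 452 genes were higher and 77 lower. With each cell thinned to 10000 UMIs and the members chosen again, 291 were higher and 61 lower. These shares come from the contrast that the rule set, so nothing is read from them. Of the higher genes, 83 belonged to the 8 mitosis lists, 8 only to other lists and 124 to no list. Of the lower genes, 9 belonged to the replication list and 18 were replication-dependent histones.

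Together the 8 mitosis lists had 143 of 144 genes above the level limits. Of these, 83 were called higher, beside 2.94% of all genes compared, and none lower, and among the 130 genes past the CPM limit in both groups 71 were higher. Over the 144 genes, all with at least 50 UMIs, the median log2 ratio was 0.68 (0.57 to 0.92) beside 0.03 over all genes compared. In each member, UMIs from these lists summed to 1.37% to 3.06% of the total, with a median of 1.83%, against 0.402% to 1.74% and a median of 1.14% in comparison cells. All 359 members lay above the comparison median, and 234 lay above every comparison cell.

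Spindle motors and microtubule factors had 24 of 28 genes called higher, beside 2.94% of all genes compared, and a median of 1.17. Nusap1, a microtubule-bundling protein of the spindle, had 236 CPM in members (228 to 243) and 33.8 in comparison cells, a ratio of 6.96 (6.62 to 7.33). Over single members it ran from 0 to 1132 CPM with a median of 218, against a median of 26.1 and a maximum of 284 in comparison cells, so that 105 members lay above every comparison cell and the groups overlapped. Prc1, which crosslinks antiparallel microtubules in the central spindle, had 409 and 99.5 CPM, a ratio of 4.11 (3.98 to 4.25). Tpx2, the spindle activator of Aurora A, had 337 and 105 CPM and a log2 ratio of 1.67. Kif11, the motor that separates the spindle poles, had 151 and 60.4 CPM (1.31), and the chromokinesin gene Kif4 had 58.7 and 23.1 CPM (1.31). Not all members of the list were higher: Stmn1, a microtubule-destabilizing protein, had 500 and 522 CPM (-0.06), and Haus8, a subunit of the augmin complex, had 22.5 and 28.2 CPM (-0.31).

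The kinetochore, centromere and checkpoint list had 20 of 34 genes called higher (2.94% over all genes compared), with a median of 0.63. Cenpa, the histone H3 variant of centromeres, had 375 and 99.8 CPM, a ratio of 3.76 (3.63 to 3.89). Members of the chromosomal passenger complex differed in size of change, with Incenp at 117 and 37.4 CPM (1.62) and Birc5 at 406 and 264 CPM (0.62). The cohesin protector gene Sgo2a had 206 and 66.1 CPM (1.63). Of the outer kinetochore, Ndc80 stood at 1.29 and Nuf2 at 0.65 on the log2 ratio scale, while Spc24 stood at 0.09 beside Spc25 at 1.05. Components of the constitutive centromere network gave small values, with Cenph at -0.09, Cenpk at -0.11 and Cenpw at 0.00, but Cenpl stood at 1.98 with 28.9 and 6.60 CPM. Subunits of the same complex therefore did not share one ratio.

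Among kinases, 5 of 10 genes were called higher, against 2.94% of all genes compared. Aurkb, the kinase of the chromosomal passenger complex, had 96.0 and 33.7 CPM (1.48), and the checkpoint kinase genes Bub1b, Ttk and Bub1 stood at 1.08, 0.95 and 0.92. Plk4, the kinase of centriole duplication, had 84.8 and 80.1 CPM (0.08). In the list of mitotic entry, 10 of 18 genes were called higher, beside the same 2.94%. Cdk1 had 369 and 143 CPM, a ratio of 2.59 (2.51 to 2.67), and its small partner Cks2 had 857 and 311 CPM. The phosphatase genes that activate CDK1 divided: Cdc25c had 37.0 and 12.4 CPM and Cdc25b 11.2 and 4.68 CPM, while Cdc25a, which also acts at S phase entry, had 38.5 CPM in members and 56.0 in comparison cells (-0.53, above the limit for a lower call). Ccna2 and Ccnb2, which encode cyclins A2 and B2, stood at 0.79 and 0.73, below Ccnb1. Wee1, a CDK1 inhibitor, was at 0.46, and Foxm1, a transcription factor of G2 genes, had 13.3 and 7.57 CPM (0.74). Cdc25b and Foxm1 passed the 10 CPM limit in members only, which favours a higher call.

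For exit from mitosis, the anaphase-promoting complex list had 3 of 18 genes called higher, with a median of 0.17, where 2.94% of all genes compared were called. The 3 were Fzr1, the activator that follows Cdc20, with 50.9 and 18.4 CPM (1.42), securin (Pttg1) with 195 and 101 CPM (0.94), and separase (Espl1) with 35.6 and 18.5 CPM (0.91). The core subunits named Anapc or Cdc16, Cdc23, Cdc26 and Cdc27 lay between -0.27 for Anapc11 and 0.28 for Cdc23. Cytokinesis genes were called higher in 4 of 8 cases, beside 2.94% of all genes, with Ect2, the exchange factor for RhoA at the midzone, at 182 and 79.5 CPM (1.18), and Rhoa itself at 259 and 279 CPM (-0.11).

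Of 13 condensation and mitotic chromatin genes, 6 were called higher, beside 2.94% of all genes compared. Top2a, the topoisomerase of mitotic chromosomes, had 595 and 238 CPM, a ratio of 2.50 (2.44 to 2.57), and Mki67 had 133 and 51.1 CPM. The shared condensin subunit gene Smc4 stood at 1.19 and Smc2 at 0.62. Condensin I subunits Ncaph and Ncapd2 stood at 0.76 and 0.63, and condensin II subunits Ncapd3 and Ncapg2 at 0.21 and -0.16. Cohesin, which holds sister chromatids together, had 0 of 10 genes called, a count near that share, with a median of 0.20 and a highest value of 0.49 for Esco2. Among 10 tubulin genes, 2 were called higher, Tuba1c and Tubb4b, again beside 2.94%. Tuba1c had 148 and 39.5 CPM, a ratio of 3.75 (3.55 to 3.96), whereas Tuba1b had 605 and 520 CPM (0.22) and Tuba1a 225 and 218 (0.05). Alpha-tubulin genes are similar in sequence, and how reads were divided among copies is not given in the sources used here.

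**Figure D2:**
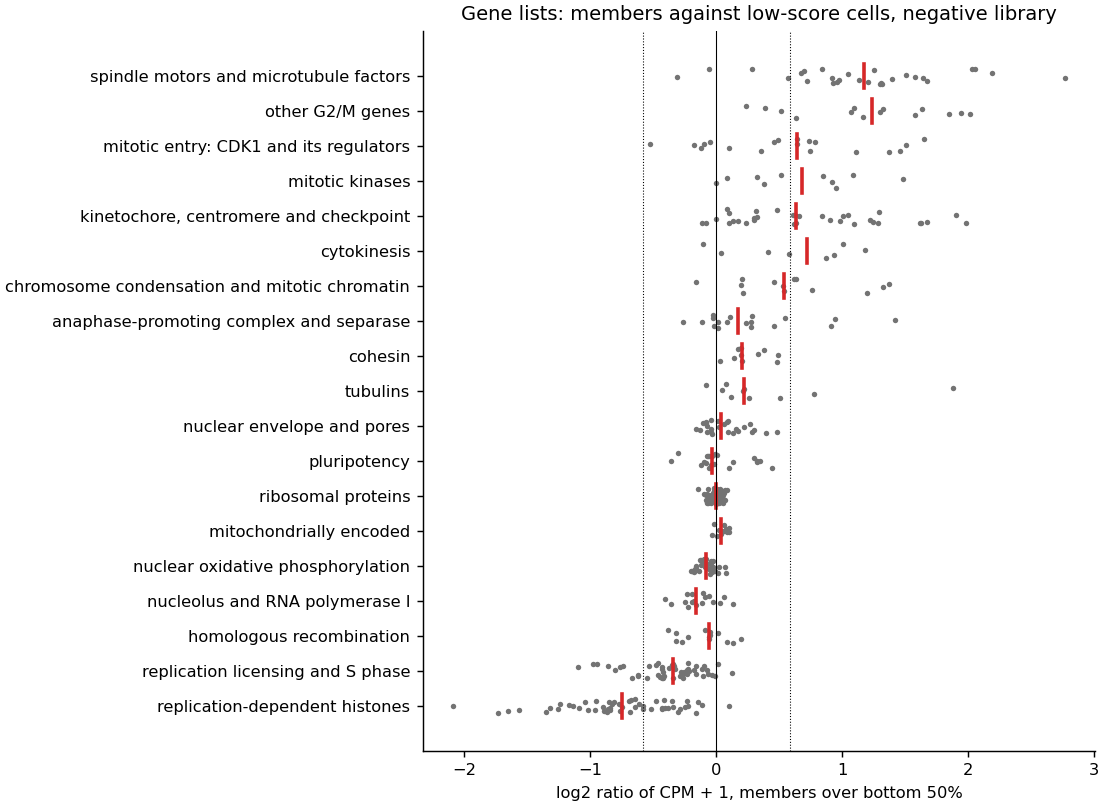
Log2 ratio of CPM + 1, members over comparison cells of the negative library (horizontal axis), for each gene with at least 50 UMIs in 19 lists (rows, points spread vertically at random); red bars are list medians and dotted lines the ratio of 1.5 in either direction. Spindle and other G2/M genes have medians of 1.17 and 1.23, ribosomal protein genes cluster at 0.00, and replication-dependent histones have a median of -0.75.

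The 15 genes with the highest ratios outside the score held 10 genes of the mitosis lists, which made up 143 of the 7313 genes compared. The other 5 were Hyls1, a centriole protein gene, with 32.2 and 6.53 CPM (2.14), Arhgef39 (1.91), Rps23rg1 (1.91), Tuba1c and the long noncoding RNA Lockd (1.70). Of the 15, Fam83d, Hyls1, Cenpl, Cdca2, Arhgef39, Rps23rg1, Depdc1a and Lockd passed the 10 CPM limit in members only, which favours a high ratio. Rps23rg1 is a retrocopy of a ribosomal protein gene, so its count is uncertain, although the list of 72 ribosomal protein genes had none called and a median of 0.00. Lockd lies downstream of Cdkn1b, the gene of the CDK inhibitor p27, which had 33.2 and 19.2 CPM (0.76). Arl6ip1, an endoplasmic reticulum membrane protein gene, had 817 and 201 CPM, a ratio of 4.05 (3.96 to 4.15), and ran over single members from 161 to 2163 CPM with a median of 773. It was found in 100% of members and 98.7% of comparison cells, and in 99.7% and 82.7% after thinning. H2ax, a histone variant gene with polyadenylated transcripts, had 645 and 334 CPM (0.95). Among higher genes in no list, picked here after their values were seen, were Pimreg (1.53), Reep4, which clears endoplasmic reticulum from mitotic chromosomes (1.39), Dbf4, the activator of the replication kinase CDC7 (0.92), the Polycomb factor Mtf2 with 442 and 248 CPM (0.83), and the adhesion protein gene Epcam with 159 and 82.5 CPM (0.94).

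In the replication list, which holds genes of S phase, 9 of 49 genes above the level limits were called lower beside 0.520% of all genes compared, none higher and the others not called, with a median of -0.35 (-0.43 to -0.26). The 9 were Cdc6, Dscc1, Ung, Gins2, Chaf1b, Slbp, Uhrf1, Orc6 and Pcna. Dscc1 (7.07 and 14.6 CPM) passed the 10 CPM limit in the comparison cells only, which favours a lower call. Among the 48 genes past that limit in both groups, 8 were lower. Cdc6, which loads the replicative helicase, had 19.6 CPM in members and 43.0 in comparison cells (-1.10). Ung, the uracil glycosylase that acts on new DNA, had 59.3 and 108 CPM (-0.86), and the polymerase clamp gene Pcna had 201 and 310 CPM (-0.62). The helicase subunit genes were not called, with log2 ratios from -0.12 for Mcm7 to -0.55 for Mcm4. Rrm1, a subunit of ribonucleotide reductase, had 69.2 and 69.6 CPM (-0.01), and Orc1, of the origin recognition complex, 36.9 and 36.4 CPM (0.02). The list's share of UMIs had a median of 0.510% in members and 0.661% in comparison cells, and 22 of 359 members (6.13%) lay above the latter.

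Replication-dependent histones stood lowest. This list of 64 genes was put together after the values had been seen. Of 19 genes above the level limits, 18 were called lower, beside 0.520% of all genes compared, and the other, H3c1, had a log2 ratio of -0.38. However, 9 of the 19 passed the 10 CPM limit in the comparison cells only, which favours a lower call, and the other 10 passed it in both groups and were all called lower. The median was -0.75 (-0.86 to -0.58) over the 53 genes with at least 50 UMIs. Linker histone H1f5 had 255 CPM in members (248 to 263) and 756 in comparison cells, a ratio of 0.337 (0.327 to 0.348). Over single members H1f5 ran from 0 to 1415 CPM with a median of 146, and over comparison cells from 0 to 3149 with a median of 672; 40 members lay above that median. H2ac8 had 56.8 and 181 CPM (-1.66) and H1f4 125 and 276 CPM (-1.14). Slbp, which encodes the protein that binds the stem-loop of these transcripts, had 107 and 179 CPM (-0.74). Of the 15 genes with the lowest ratios, 11 were such histones, all in the cluster on chromosome 13 between 21779883 and 23764406 (GENCODE M21, build GRCm38). These genes are near copies of each other and their transcripts mostly lack poly(A) tails, so levels of single copies are uncertain, and the capture chemistry is not given in the sources used here.

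Their summed share of UMIs per cell varied widely among members, from 0 to 0.390% with a median of 0.0569% and quartiles of 0.0271% and 0.129%. The comparison cells had a median of 0.183%, and 45 members (12.5%) lay above it. Among members, score and histone share had a Spearman correlation of -0.23 over 359 cells, and score and the share of the mitosis lists one of 0.57. Members are cells of 1 library and these shares have the same UMI total as divisor, so both values are descriptions. Of 9 histone genes with polyadenylated transcripts, 6 had a log2 ratio above 0, with a median of 0.21. In this list 1 gene was called higher, beside 2.94% of all genes compared, and none lower. The variants H3f3a and H2az1 stood at -0.01 and -0.14.

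Shares of cells in which a transcript was detected were compared after each cell had been thinned to 10000 UMIs. Nusap1 was detected in 86.4% of members (82.4 to 89.7%) and 27.0% of comparison cells, against 99.7% and 64.8% before thinning. Aurkb was detected in 58.2% and 27.5% of thinned cells. For H2ac8 the shares were 36.2% and 73.6%, and for Cdc6 18.1% and 33.0%. Before thinning H2ac8 was detected in 69.6% and 91.8% and Cdc6 in 54.6% and 72.0%. Esrrb was detected in 40.7% (35.5 to 45.9%) and 41.4% (39.1 to 43.7%) of thinned cells and in 83.6% and 83.1% before thinning. No difference between the groups is read from these shares. The 2C transcript Zscan4d was detected in 0.279% and 0.222% of thinned cells, with up to 675 CPM in a single comparison cell.

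**Figure D3:**
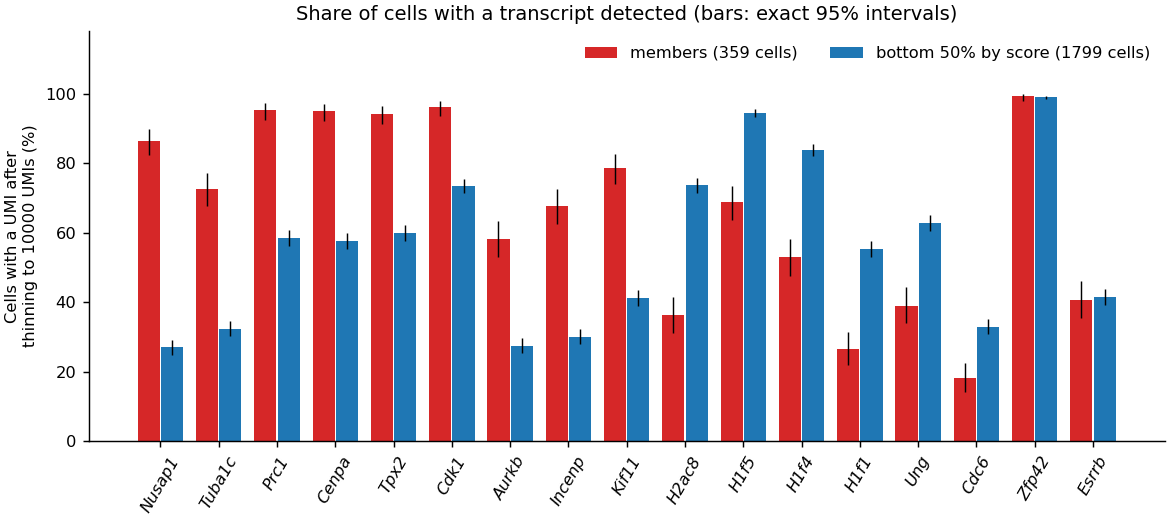
Percent of cells with at least 1 UMI of a gene after thinning to 10000 UMIs (vertical axis) in the 359 members and the 1799 comparison cells, with exact 95% intervals as error bars. Nusap1 was detected in 86.4% and 27.0% and H2ac8 in 36.2% and 73.6%, while the stem cell genes Zfp42 and Esrrb had nearly equal bars.

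Levels were then followed through 10 classes of about 360 cells in order of score, of which class 10 is the members. Class 10 against classes 1 to 5 is nearly the contrast that chose the genes, so only the course between the classes is described, and it differed between genes. Cenpa was higher in each class than in the one before, from 72.7 CPM in class 1 through 135 in class 5 to 288 in class 9 and 375 in class 10. Top2a was nearly level from class 2 (235) to class 7 (250 CPM) and then stood at 409 in class 9 and 595 in class 10. Cdk1 took a similar course, with 162 CPM in class 7, 253 in class 9 and 369 in class 10. Birc5 went from 222 CPM in class 1 through 293 in class 6 to 406 in class 10. Histones were highest in the lower middle of the order: H1f5 had 655 CPM in class 1, 806 in class 3, 449 in class 9 and 255 in class 10. Cdc6 had 45.4 CPM in class 6, 25.1 in class 9 and 19.6 in class 10. The replication list as a whole was highest in class 2 with 6817 CPM and lowest in class 10 with 5162.

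**Figure D4:**
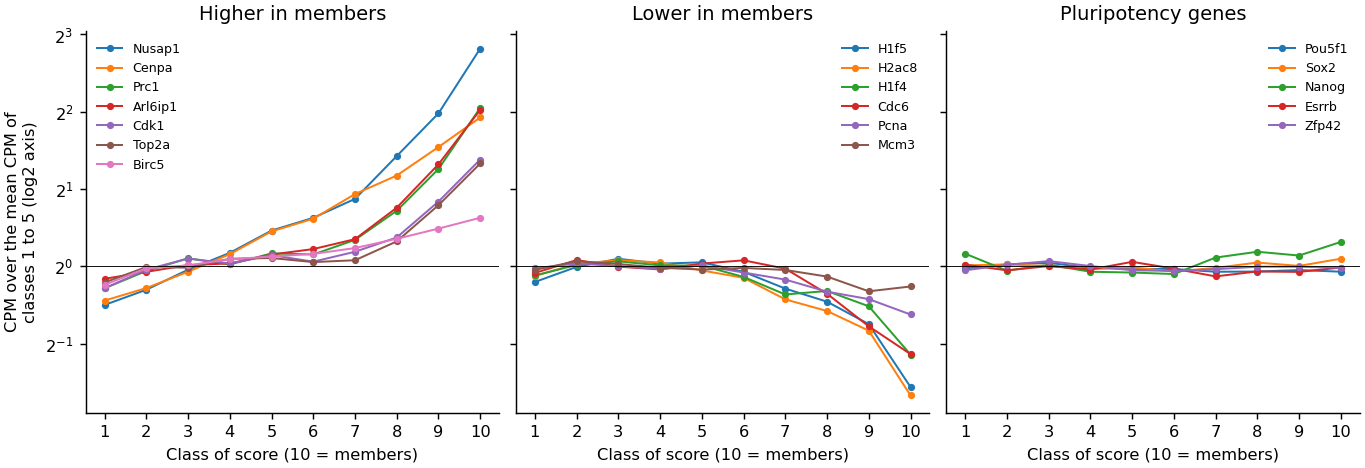
Level of single genes in 10 classes of cells in order of score (horizontal axis), each divided by the gene's mean over classes 1 to 5 (vertical axis, log2 scale), for genes higher in members, lower in members and of pluripotency. Nusap1 and Cenpa climb from class 1 on, Top2a and Cdk1 mainly in classes 8 to 10, H1f5 and H2ac8 are lowest in class 10, and the pluripotency genes stay near 1.

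None of 19 pluripotency genes above the level limits was called in either direction, with a median of -0.03. Over all genes compared 2.94% were called higher and 0.520% lower, so that nothing is read from the lack of calls in this list or in those of 36 and 17 genes below. Pou5f1 had 379 and 398 CPM (-0.07), Sox2 593 and 552 (0.10), and Zfp42 1292 and 1310.4 CPM (-0.02), while Nanog had 240 and 192 CPM (0.32). The outer values were Tfcp2l1 at -0.36 and Dppa3 at 0.44, the latter with 9.87 and 7.03 CPM. Of 7 genes of primed pluripotency above the level limits, 2 were called higher beside 2.94% of all genes compared, though the second passed the CPM limit in members only: Otx2 with 31.0 and 18.6 CPM (0.71) and Lef1 with 16.4 and 9.47 CPM (0.73). Nuclear genes of oxidative phosphorylation had none of 36 called, with a median of -0.08, and the nucleolar list none of 17, with a median of -0.16. The nuclear RNA Malat1 had 7463 and 5338 CPM (0.48). In the list of G1 cyclins and CDK inhibitors, 13 genes were above the level limits, with a median of 0.06 (-0.26 to 0.43) over the 16 with at least 50 UMIs. Of the 13, 2 were called higher, the inhibitor genes Cdkn1b and Cdkn2d (0.76 and 0.74), and 1 lower, the growth factor-responsive gene Myc with 10.2 and 17.7 CPM (-0.74), beside 2.94% and 0.520% of all genes compared. No 2C gene reached the level limits, and 9 of the 24 found in the feature table had no UMI in either group.

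The same rule was applied to the MERVL GFP positive library, which took no part in the choice. It gave 389 cells in its top 10% and 1947 in its bottom 50%. The limit lay higher there, at a score of 0.361%. In that library 8120 genes were compared, of which 554 (6.82%) were higher and 97 (1.19%) lower, and 160 (1.97%) and 10 (0.123%) at a ratio of 2. Of the 215 genes higher in the members, 201 were compared in both libraries, 198 had the same sign and 151 (75.1%) were past the ratio of 1.5, against 2.35% of the other genes. Among those other genes, 54.0% were above 0 in the positive library. Nusap1 had 230 and 45.7 CPM (2.31) there, Prc1 485 and 128 CPM (1.91) and Cdk1 461 and 162 CPM. Incenp (1.75 beside 1.62 in the negative library) and Fzr1 (1.18 beside 1.42) held similar values. Among the exceptions was Ptch1, the Hedgehog receptor gene, at 0.60 in the negative and -0.55 in the positive library, a gene picked after its values were seen.

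Of the 38 genes lower in the members, 34 were compared in both libraries, 25 had the same sign and 10 (29.4%) were past 1.5, against 1.04% of the other genes. Among those other genes, 44.6% were below 0 in the positive library. Cdc6 stood at -0.79, Ung at -1.09 and H1f5 at -1.15 in the positive library. Of the 18 histones called lower, 17 were compared in both libraries, of which 9 had the same sign and 8 the opposite one, such as H3c3 at 0.30 and H2bc4 at 0.78. Cells with at least 0.1% of their UMIs from 2C genes made up 54.8% of the top 10% and 25.1% of the bottom 50% of the positive library, but 0 of the members and 3 of the comparison cells. Without such cells in the positive library, 33 of 33 lower genes compared had the same sign. Of these, 19 were past 1.5, against 0.254% of the other genes. The median of the histone list in that setting was -0.40 instead of 0.27. Of the higher genes, 155 of 207 were past 1.5 without the cells that had at least 0.1% 2C UMIs, against 0.882% of the other genes. Across 7059 genes compared in both libraries, log2 ratios had a Pearson correlation of 0.68 and a Spearman correlation of 0.58; genes are not independent, and the same 8 genes chose cells in each library.

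**Figure D5:**
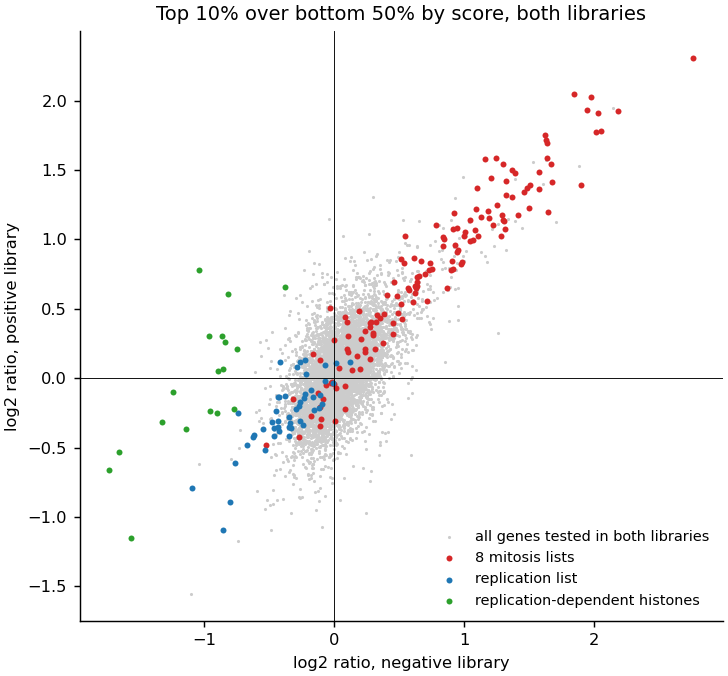
Log2 ratio of CPM + 1, top 10% over bottom 50% by score, in the negative library (horizontal axis) and the positive library (vertical axis) for 7059 genes compared in both. Genes of the 8 mitosis lists lie toward the upper right with Nusap1 at 2.76 and 2.31, replication genes toward the lower left, and part of the histones at the upper left, with H2bc4 at -1.04 and 0.78.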

How the data were processed

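Single cells of 1 MERVL GFP negative and 1 MERVL GFP positive library were analysed. The deposited sparse matrices hold unnormalized counts for 55415 features. They are taken to be UMIs because cell barcodes are 16 bases long and the library source is single-cell; molecule counting is not stated, and the labels' extraction text describes a total RNA kit. The submitters' processing notes name FastQC 0.11.2, Trim Galore 0.6.4, STAR 2.7.6a and mm10; annotation, cell calling and doublet removal are not given in the sources used here. No doublet caller was run; an alternative left out cells above 2 times the median UMIs.

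Counts were summed over members and over comparison cells, scaled to CPM over all features and compared as the log2 ratio of CPM + 1 (Python 3.11.15, numpy 2.4.6, scipy 1.17.1). TMM factors came from edgeR 4.0.16 (R 4.3.3); no test was run with 1 library per group. The cell rule, members and gene lists were chosen with earlier results of these data known. Genes named are the 8 score genes, list members, and the 15 highest and 15 lowest called genes with one direction under every scaling; others are said to have been picked by value. Genes entered list medians with at least 50 UMIs. Intervals are exact Poisson, Clopper-Pearson or conditional binomial ones, and those of medians come from order statistics. Alternatives changed scaling, pseudocount, level and ratio limits, score genes, cell groups, depth, endoderm and mitochondrial limits. Gene calls were tested on simulated counts with known genes altered, and the choice of cells on counts with known cells altered. Intervals of counts and totals of thinned cells were also checked. The other steps were not tested in this way.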

Additional observations from a re-analysis of the deposited data

Results flagged for a closer look

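Some replication-dependent histones had opposite signs in the libraries under the same rule. H2bc4 had a log2 ratio of 0.78 in the positive and -1.04 in the negative library, where it was 0.033 among cells with UMIs between the quartiles, and H3c3 had 0.30 and -0.96. The list median was 0.27 among positive cells and -0.75 among negative ones. Of 17 histones called lower and compared in both, 9 kept the negative sign, H1f5 at -1.15 among them, and the list's summed level was 1548 CPM in the top 10% and 1692 in the bottom 50% of the positive library. These differences between libraries were not tested, since each group had 1 library. Without positive-library cells that had at least 0.1% of UMIs from 2C genes, the values there were -0.22 for H2bc4, -0.48 for H3c3 and -0.40 for the list. With median-of-ratios scaling of the positive library the list median there was 0.16, and with the score limits of the negative library it was 0.67.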

How the results depend on the processing

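The number of genes higher in members, 215, was 368 without a CPM minimum, 85 at 50 CPM or more, 76 at a ratio of 2, 143 with the top 20% as members, 142 against all other cells and 452 with cells of UMIs between the quartiles, which left 130 members and 972 comparison cells. The number lower, 38, was 92 without a CPM minimum, 15 at 50 CPM, 11 at a ratio of 2, 25 with the top 20%, 61 in cells thinned to 10000 UMIs and 77 between the UMI quartiles. With TMM scaling, 154 were higher and 55 lower. The replication list median, -0.35, was -0.43 with TMM, -0.43 with median-of-ratios scaling and -0.24 with a score of Ccnb1, Cdc20, Plk1 and Aurka. The median of the mitosis lists, 0.68, was 0.54 against all other cells and 0.55 with that score. In the positive library, 63 instead of 151 higher genes and 2 instead of 10 lower genes were past a ratio of 2, and 19 lower genes were past 1.5 without 2C cells. The mitochondrially encoded list, at a median of 0.04, was at -0.049 with TMM, -0.048 with median-of-ratios scaling and -0.098 with the score of 4 genes. H2bc4 was at 0.033 between the UMI quartiles. The cause of these shifts was not tested, apart from the limits that admit fewer genes or cells. Among single genes, only the 15 highest and 15 lowest called genes were followed through the alternatives. These had been chosen for keeping their direction under every scaling. Their other values moved in 206 cases by more than their counting interval and stayed within it in 333, with no other change of sign. Other single list genes were not followed, so their signs may depend on the scaling. Medians of the other lists moved in 37 cases and stayed in 514. Leaving out negative-library cells with at least 0.1% 2C UMIs, an alternative chosen after seeing the data, gave 215 and 38 again. No paired analysis was possible because a group held 1 library only, and leaving out a replicate was not possible either. Depth limits single-cell values of genes near 10 CPM, of which most cells had no UMI.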
